A study of Mus musculus with 6 samples.

Results

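The genes described here form the Myc, Max and Mxd network, a family of transcription factors that share a basic helix-loop-helix leucine zipper. They are Myc, Mycn, Max, Mga, Mxd1, Mxd3, Mxd4, Mxi1, Mnt and Mlx, taken by family membership, and all 10 of 10 were measured among 19938 genes. Each was read from the probe set naming only that symbol with the highest mean over the 6 arrays, and each had 1 such probe set. The cells were BDC2.5 CD4 T cells, whose T cell receptor recognises a beta cell antigen of the pancreas. They had been transferred into female NOD mice, a strain prone to autoimmune diabetes, and were sorted from the spleen as Thy1.1+CD4+ cells, with mice listed at 7 weeks of age. The 3 groups of 2 arrays differed in what was injected 14 h earlier. Those of the PBS group came from control mice given PBS, those of anti-DEC205-BDC from mice given 100 ng of an antibody to DEC205 that carries the BDC antigen, and those of anti-DCIR2-BDC from mice given 100 ng of such an antibody to DCIR2. DEC205 and DCIR2 are receptors on different dendritic cells. No group received an antibody without the antigen, so effects of antigen and antibody cannot be told apart, and the labels do not say how many mice gave an array.

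MYC does not bind DNA alone. It pairs with MAX, and the pair binds E-boxes and raises transcription of genes for ribosome assembly, metabolism and the cell cycle. The MXD proteins (MXD1, MXI1, MXD3 and MXD4), MNT and MGA also pair with MAX at such sites, and MXD and MNT recruit SIN3 and histone deacetylases that repress transcription. MLX is the MAX-like partner of MLXIP and MLXIPL and can pair with some MXD proteins and MNT. In T cells Myc is known as a gene induced by antigen receptor signals and needed for growth after activation.

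The core E-box that these pairs bind is CACGTG, which reads alike on both strands. RefSeq promoter windows of GRCm38.p6, running from 250 bases before a start site to 50 after it, matched 9 of the 10 genes, all but Myc, in 11 windows. The E-box was found in the windows of 4 of them, Mxd4, Mnt, Mlx and Max. It was found in 7.15% of all 32851 windows and in at least 1 window of 9.5% of the 15614 measured genes that had one. A match is a description of the sequence, not of binding. The 30 bases around each E-box are shown 5′ to 3′ on the gene's strand, with the E-box in capitals. They lie at chr5:34187912-34187941 (minus strand) for Mxd4, chr11:74830789-74830818 (plus) for Mnt, chr11:101087238-101087267 (plus) for Mlx and chr12:76962234-76962263 (minus) for Max.
Mxd4: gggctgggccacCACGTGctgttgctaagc
Mnt: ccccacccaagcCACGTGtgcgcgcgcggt
Mlx: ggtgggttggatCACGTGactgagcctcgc
Max: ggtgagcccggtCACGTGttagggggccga
Since Mxd4 was the repressor with the largest difference between groups, the 250 bases upstream of it (chr5:34187711-34187960, minus strand) are given with the E-box in capitals, starting at base -219 from the start site.
Mxd4 upstream: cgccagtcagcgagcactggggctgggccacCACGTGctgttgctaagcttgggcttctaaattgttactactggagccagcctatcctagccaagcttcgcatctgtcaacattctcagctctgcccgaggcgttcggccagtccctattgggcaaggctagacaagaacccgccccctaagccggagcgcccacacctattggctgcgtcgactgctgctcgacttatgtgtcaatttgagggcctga

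All values below are log2 expression per probe set. Groups were compared in limma over all 19938 genes, and a gene passed at a Benjamini-Hochberg adjusted p under 0.05. Array medians lay between 5.43 and 5.56 over all probe sets, and with 2 arrays a group the 95% interval around a log2 change extended 0.388 each way in the median gene. The labelled cell type was checked on markers. The mean of 9 T cell markers, Cd3e and Cd4 among them, was 10.39 and 10.46 in the PBS arrays, 10.08 and 10.003 after anti-DEC205-BDC and 9.59 and 9.64 after anti-DCIR2-BDC. Their summed linear level was 16540 and 16710 in PBS, 13540 and 12280 after anti-DEC205-BDC, and 10030 and 9637 after anti-DCIR2-BDC. Of these 9 markers 1, Trat1, fell after anti-DEC205-BDC (0 to 2 when 1 array was left out, 0 without PBS array 1 or DEC205 array 2), and 6 fell after anti-DCIR2-BDC, Cd3d, Cd3e, Cd3g, Cd4, Cd28 and Trat1 (5 to 6). The mean of B cell, dendritic cell, macrophage, NK cell and neutrophil markers lay between 4.49 and 5.29 in every array, that of the CD8 markers between 5.42 and 6.03, and the 1 measured erythroid marker between 4.88 and 5.58. Of the markers of cell types other than T cells, 2 passed in a comparison against PBS. Cd14, a monocyte receptor, fell after anti-DEC205-BDC (log2 change -0.83, limma adjusted p = 0.0341), but no longer when any 1 array other than DEC205 array 1 was left out. Eomes, a factor of NK cells that T cells can also express, rose after anti-DEC205-BDC (1.64, limma adjusted p = 0.00494) and after anti-DCIR2-BDC (1.06, limma adjusted p = 0.0198). Neither rise passed when every probe set was tested, and the latter also did not without PBS array 2, DCIR2 array 1 or DCIR2 array 2. The part of these markers in the results below was not tested, and in a bulk sample fewer cells of a type and less RNA per cell cannot be told apart.

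**Figure D1:**
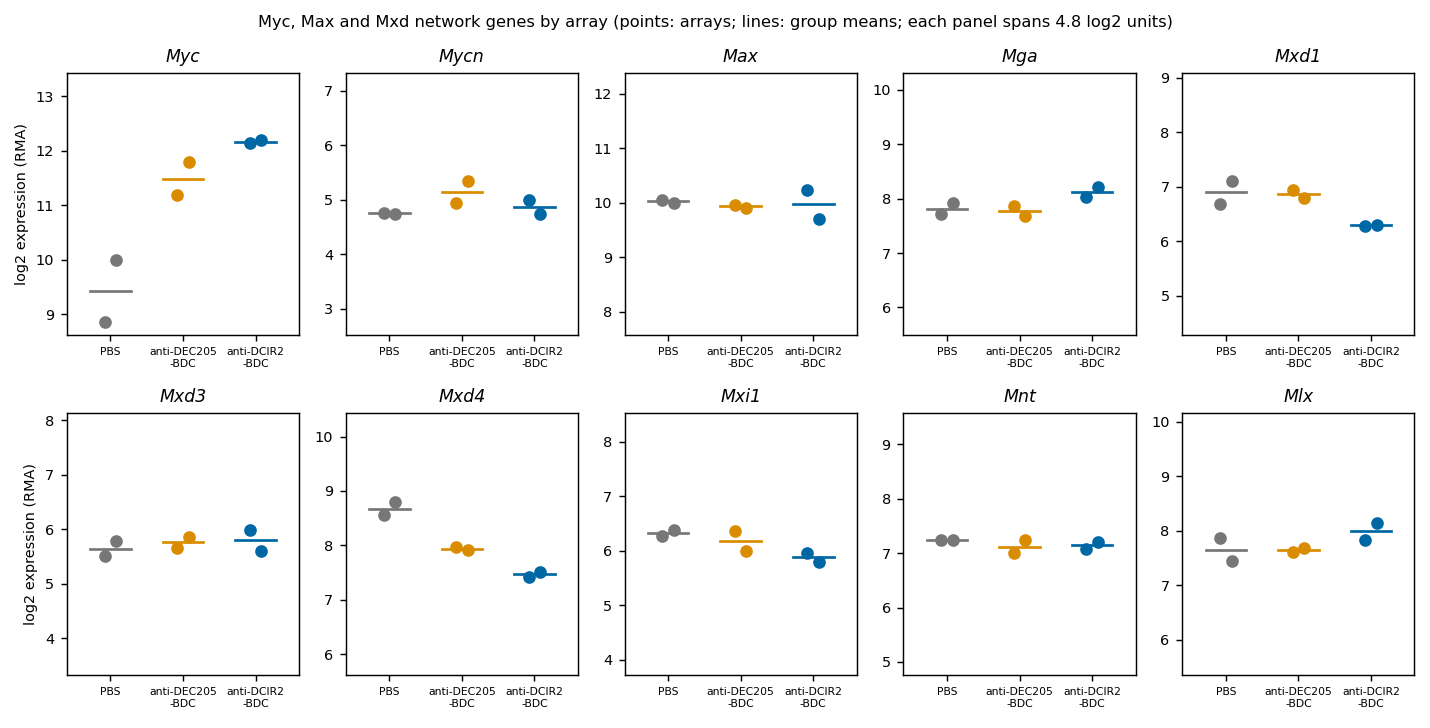
Log2 expression of the 10 network genes in each array (points) with group means (lines); every panel spans the same number of log2 units. Myc climbs from 8.86 and 9.99 in PBS to 12.14 and 12.19 after anti-DCIR2-BDC, Mxd4 steps down over the same groups, and Max stays between 9.70 and 10.24.

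Myc, the activator of the network, was higher after both antibodies. Its level was 8.86 and 9.99 in the PBS arrays, 11.18 and 11.79 after anti-DEC205-BDC, and 12.14 and 12.19 after anti-DCIR2-BDC. No array of a group overlapped with another group, and the PBS arrays lay farthest apart. Myc rose 4.17-fold after anti-DEC205-BDC, from 9.43 ± 0.80 to 11.49 ± 0.43 (SD, n = 2), a log2 change of 2.06 (standard error 0.30, limma adjusted p = 0.0028). It rose 6.68-fold after anti-DCIR2-BDC, to 12.17 ± 0.04 (SD, n = 2), a log2 change of 2.74 (standard error 0.30, limma adjusted p = 0.000189). The rise after anti-DEC205-BDC did not pass when every probe set was tested (limma adjusted p = 0.0613), and its adjusted p ranged from 0.000791 to 0.0613 over 16 alternatives. Its log2 size was 1.498 without PBS array 1 and 2.62 without PBS array 2. The rise after anti-DCIR2-BDC passed in 16 of 16 alternatives, with log2 changes from 2.18 without PBS array 1 to 3.30 without PBS array 2.

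Mycn encodes N-MYC, a close relative of MYC that pairs with MAX in the same way and is known from embryonic and neural tissue. Its probe set lay below the array median in all 6 arrays, at 4.76 and 4.73 in PBS, 4.94 and 5.35 after anti-DEC205-BDC, and 5.00 and 4.74 after anti-DCIR2-BDC. The log2 change was 0.40 after anti-DEC205-BDC (95% interval 0.02 to 0.77, limma adjusted p = 0.209) and 0.12 after anti-DCIR2-BDC (-0.25 to 0.49, limma adjusted p = 0.725), and neither passed.

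Max encodes the partner shared by MYC, MXD, MNT and MGA. It was measured at 10.06 and 9.99 in PBS, 9.97 and 9.91 after anti-DEC205-BDC, and 10.24 and 9.70 after anti-DCIR2-BDC. The arrays of anti-DCIR2-BDC lay on either side of all others. The log2 change was -0.09 after anti-DEC205-BDC (95% interval -0.49 to 0.32, limma adjusted p = 0.863) and -0.06 after anti-DCIR2-BDC (-0.46 to 0.35, limma adjusted p = 0.893). Neither interval reaches a log2 change of the size measured for Myc, and neither shows that Max was equal between groups.

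Mxd4 encodes MXD4, a MAX-binding repressor found in cells that have stopped dividing or are differentiating. It was measured at 8.55 and 8.80 in PBS, 7.97 and 7.91 after anti-DEC205-BDC, and 7.43 and 7.51 after anti-DCIR2-BDC. Its groups did not overlap and ran in the reverse order of those of Myc. Mxd4 fell by 1.20 on the log2 scale after anti-DCIR2-BDC (2.30-fold lower, standard error 0.19, limma adjusted p = 0.00126), and this fall passed in 16 of 16 alternatives. After anti-DEC205-BDC it fell by 0.73 (1.66-fold lower, standard error 0.19, limma adjusted p = 0.0347). That fall did not pass in 9 of 16 alternatives: without PBS array 1 (log2 change -0.86, adjusted p = 0.0632), PBS array 2 (-0.61, 0.168), DEC205 array 1 (-0.77, 0.106), DEC205 array 2 (-0.70, 0.148), DCIR2 array 1 (-0.73, 0.0634) or DCIR2 array 2 (-0.73, 0.0631), with only the 4 arrays compared (0.0593), with median centring (0.0608) or with every probe set (0.0945). Over all 16 the limma adjusted p ranged from 0.015 to 0.168.

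Mxd1 and Mxi1 encode further MAX-binding repressors, MXD1 known from differentiating blood cells and MXI1 as a tumour suppressor candidate. Mxd1 was measured at 6.69 and 7.11 in PBS, 6.94 and 6.78 after anti-DEC205-BDC, and 6.28 and 6.30 after anti-DCIR2-BDC. The anti-DCIR2-BDC arrays lay below all others, while those of PBS and anti-DEC205-BDC overlapped. Its log2 change after anti-DCIR2-BDC was -0.61 (95% interval -1.05 to -0.17, limma adjusted p = 0.0619), which missed the threshold, and -0.03 after anti-DEC205-BDC (-0.47 to 0.41, limma adjusted p = 0.957). The former passed without PBS array 1 (log2 change -0.81, limma adjusted p = 0.0387), with the dimmest 30% (0.0492) or 50% (0.0419) of genes removed or with no trend (0.041), and ranged from 0.0387 to 0.319 over the 16 alternatives. Of the 5 neutrophil markers, a cell type in which Mxd1 is known to be high, 0 passed in either comparison (limma, 1 of them at an unadjusted p under 0.05 after anti-DCIR2-BDC and 0 after anti-DEC205-BDC). The mean of these markers lay between 4.60 and 4.79 in every array, below the lowest array median of 5.43. A part of neutrophils in the level of Mxd1 was not tested. Mxi1 was measured at 6.28 and 6.38 in PBS, 6.36 and 5.99 after anti-DEC205-BDC, and 5.97 and 5.79 after anti-DCIR2-BDC. Its anti-DCIR2-BDC arrays also lay below all others, with a log2 change against PBS of -0.45 (95% interval -0.87 to -0.04, limma adjusted p = 0.135) that did not pass.

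Mxd3, the family member known from dividing cells in S phase, was measured at 5.50 and 5.78 in PBS, 5.66 and 5.85 after anti-DEC205-BDC, and 5.99 and 5.603 after anti-DCIR2-BDC. All 3 groups overlapped, and the log2 change after anti-DCIR2-BDC was 0.15 (95% interval -0.26 to 0.57, limma adjusted p = 0.68). Mnt, a widely expressed repressor that competes with MYC for MAX, lay at 7.25 and 7.25 in PBS, 7.00 and 7.24 after anti-DEC205-BDC, and 7.07 and 7.21 after anti-DCIR2-BDC. Its log2 changes were -0.13 (95% interval -0.55 to 0.29, limma adjusted p = 0.782) and -0.11 (-0.52 to 0.31, limma adjusted p = 0.792).

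Mga, which encodes a large MAX partner with a T-box besides its helix-loop-helix, was measured at 7.71 and 7.92 in PBS, 7.87 and 7.68 after anti-DEC205-BDC, and 8.03 and 8.21 after anti-DCIR2-BDC. Mlx was measured at 7.86 and 7.44 in PBS, 7.60 and 7.68 after anti-DEC205-BDC, and 7.82 and 8.15 after anti-DCIR2-BDC. For Mga the anti-DCIR2-BDC arrays were the highest pair, whereas for Mlx 1 PBS array lay between them. The log2 changes after anti-DCIR2-BDC were 0.30 for Mga (95% interval -0.13 to 0.73, limma adjusted p = 0.363) and 0.34 for Mlx (-0.14 to 0.81, limma adjusted p = 0.36), and neither passed.

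Counted over the network, 1 of 10 genes rose (Myc) and 1 fell (Mxd4) after anti-DEC205-BDC, where 8.84% of all genes passed. After anti-DCIR2-BDC the count was again 1 up and 1 down, the same 2 genes, where 17.9% of all genes passed. By direction, 5.32% of all genes rose and 3.53% fell after anti-DEC205-BDC, and 10.1% rose and 7.82% fell after anti-DCIR2-BDC. A count of 2 in 10 is near the share that passed after anti-DCIR2-BDC and above that after anti-DEC205-BDC. It rests on 2 genes, so the count by itself is not a result about the network. At an unadjusted p under 0.05 there were 3 network genes after anti-DEC205-BDC (Myc, Mycn and Mxd4), against 20.7% of all genes, and 4 after anti-DCIR2-BDC (Myc, Mxd1, Mxd4 and Mxi1), against 28.1%. The arrays of anti-DEC205-BDC did not overlap with PBS for 5 network genes, against 48.8% of all genes. Myc and Mycn were the higher ones (22.2% of all genes), and Max, Mxd4 and Mnt the lower ones (26.5%). Those of anti-DCIR2-BDC did not overlap with PBS for 6, against 55.3% of all genes. Here Myc and Mga were higher (23.4% of all genes), and Mxd1, Mxd4, Mxi1 and Mnt lower (31.9%). Both comparisons share the PBS arrays.

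**Figure D2:**
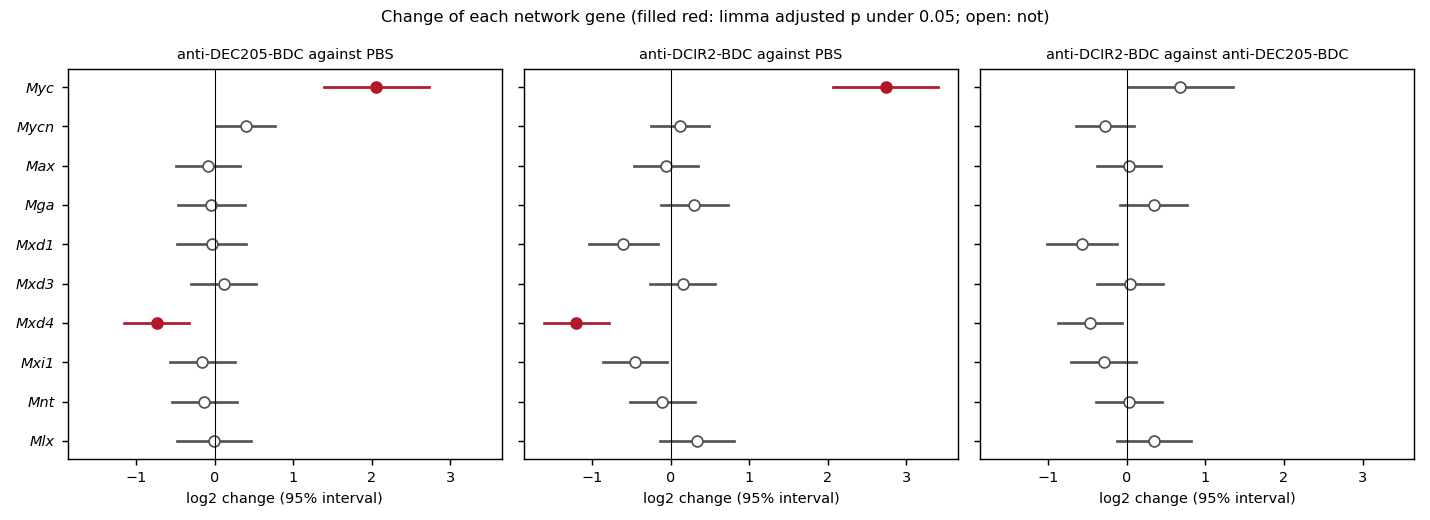
Log2 change of each network gene in the 3 comparisons with its 95% interval; filled red points passed limma at an adjusted p under 0.05. Myc (2.06 and 2.74) and Mxd4 (-0.73 and -1.20) passed against PBS, and no network gene passed between the antibodies.

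Between the antibodies 0 of 10 network genes passed in limma, where 0.0201% of all genes did (4 of 19938, namely Il3, Serpinb6b, Zbtb32 and Cpd, named after their values were seen). At an unadjusted p under 0.05 there were 3, Myc, Mxd1 and Mxd4, against 10.2% of all genes. Myc was higher after anti-DCIR2-BDC by 0.68 on the log2 scale ( 95% interval 0.01 to 1.35, limma adjusted p = 0.483), Mxd4 differed by -0.47 (-0.88 to -0.06, limma adjusted p = 0.434) and Mxd1 by -0.57 (-1.01 to -0.13, limma adjusted p = 0.376). The arrays of the antibody groups did not overlap for 6 network genes, Myc, Mga and Mlx with the anti-DCIR2-BDC arrays higher and Mxd1, Mxd4 and Mxi1 with them lower, against 40.2% of all genes (19.3% higher and 20.9% lower). Myc was among the 8.01% of genes whose 3 groups stood in the order PBS, anti-DEC205-BDC, anti-DCIR2-BDC from low to high with no overlap, and Mxd4 among the 7.1% in the reverse order.

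The genes most like Myc were found by the root mean square distance of their 6 values, each relative to the gene's PBS mean. They were Ctps, which makes CTP (distance 0.0722), the folate enzyme Mthfd1 (0.125), the ATPase Ruvbl1 (0.127), the methyltransferase Smyd5 (0.178) and the receptor phosphatase Ptprs (0.237). Ctps stood at 5.27 and 6.18 in PBS, 7.52 and 8.04 after anti-DEC205-BDC, and 8.37 and 8.48 after anti-DCIR2-BDC. Like Myc, each of these 5 genes was higher in PBS array 2 than in PBS array 1. The distance takes in both PBS values, so it favours genes that share this gap, which is no separate observation. The genes most like Mxd4, the repressor whose group means spanned the widest range (1.20), were the cytokine receptor kinase Jak1 (distance 0.0523), the kinase Map3k1 (0.054), the ubiquitin ligase Rnf166 (0.0582), the transporter Slc37a3 (0.0583) and the lymphocyte kinase Stk10 (0.0633). Jak1 stood at 10.87 and 11.02 in PBS, 10.24 and 10.22 after anti-DEC205-BDC, and 9.80 and 9.79 after anti-DCIR2-BDC. The likeness rests on 6 arrays in 3 groups and is a description.

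**Figure D3:**
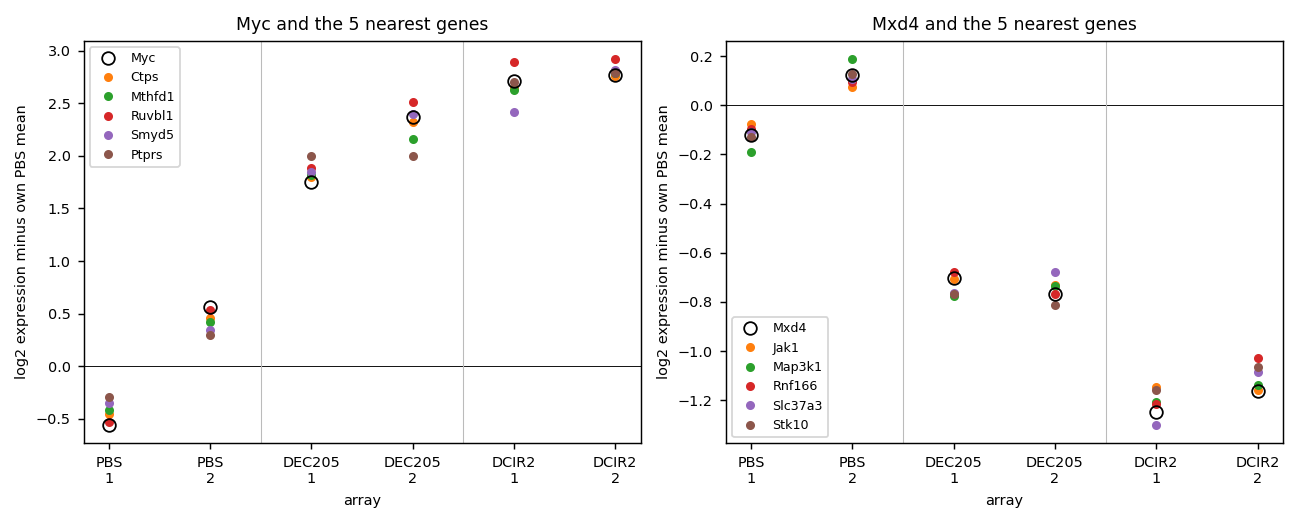
Log2 expression minus the gene's own PBS mean in each of the 6 arrays, for Myc (left) and Mxd4 (right, on a finer scale) as open circles with the 5 nearest genes as filled points. Myc and its neighbours differ between the PBS arrays as well as between groups, and Mxd4 and its neighbours step down from group to group. The neighbours were picked for their likeness over all 6 arrays.

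Around the network, 11 lists of genes were counted in the same fit; Eif4e, Tfap4 and Wdr5 each stand in 2 of them. Of the MYC-activated genes 53 of 58 were measured, and the list holds genes, such as Cdca7, Bcat1 and Mrto4, that earlier results on these arrays had shown, so it is no independent evidence of its direction. After anti-DEC205-BDC 47 of 53 rose and 0 fell, with a median log2 change of 1.27, against 5.32% of all genes higher and a median of -0.03. After anti-DCIR2-BDC 49 rose and 0 fell, with a median of 1.78, against 10.1% of all genes higher and a median of -0.05. Bcat1, which breaks down branched-chain amino acids, stood at 5.16 and 5.35 in PBS, 7.85 and 8.54 after anti-DEC205-BDC, and 9.25 and 9.45 after anti-DCIR2-BDC. The largest changes against PBS were those of Bcat1 (2.94 and 4.09), the cell cycle gene Cdca7 (3.15 and 3.80), the ribosome assembly gene Mrto4 (2.84 and 3.43) and Srm (2.17 and 3.10), with limma adjusted p from 1.97e-05 to 0.00138. Srm, which makes spermidine, stood at 6.95 and 7.23 in PBS, 8.81 and 9.71 after anti-DEC205-BDC, and 10.08 and 10.29 after anti-DCIR2-BDC. Members that did not pass after anti-DCIR2-BDC were E2f2 (log2 change -0.40), Tert (-0.01), Tfam (0.45) and Slc2a1 (0.65). The first count was 37 when every probe set was tested and 41 to 44 when 1 array was left out, and the second stayed between 48 and 50 over the alternatives.

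Between the antibodies 0 of the 53 MYC-activated genes passed in limma, and 37 were higher after anti-DCIR2-BDC at an unadjusted p under 0.05, which 10.2% of all genes passed in either direction. Their median log2 difference was 0.49, against -0.01 for all genes. The anti-DCIR2-BDC arrays lay above those of anti-DEC205-BDC with no overlap for 50 of 53, against 19.3% of all genes. The list was chosen with earlier results on these arrays known, so these counts are a description and no independent evidence. The largest of the 53 differences was that of Bcat1 (1.16, limma adjusted p = 0.18).

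The core E-box was found in the promoter windows of 10 of the 45 MYC-activated genes that had one (22.2%, against 9.5% of measured genes with a window), and all 10 rose after either antibody. Of the 35 without it 29 rose after anti-DEC205-BDC and 31 after anti-DCIR2-BDC. The list was chosen with earlier results on these arrays known, and most of its genes rose with or without an E-box. Whether the E-box goes with the rise was not tested. Cdk4, the G1 kinase gene, held 4 E-boxes in 1 window, the most among these genes, and is shown for that reason, with the E-box in capitals and positions on the plus strand of GRCm38.p6 at chr10:127063351-127063380, chr10:127063405-127063434, chr10:127063425-127063454 and chr10:127063512-127063541.
Cdk4 site 1: atggcagccagtCACGTGccacacagcgta
Cdk4 site 2: aagtcaaggggtCACGTGggatagcaacag
Cdk4 site 3: atagcaacaggtCACGTGgccgtcagggcc
Cdk4 site 4: aagggtgaagatCACGTGtccagaacgtcc
Cdk4 stood at 8.06 and 8.46 in PBS, 9.42 and 9.82 after anti-DEC205-BDC, and 9.95 and 10.13 after anti-DCIR2-BDC. It rose by 1.36 on the log2 scale after anti-DEC205-BDC (limma adjusted p = 0.00289) and by 1.78 after anti-DCIR2-BDC (limma adjusted p = 0.000215).

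**Figure D4:**
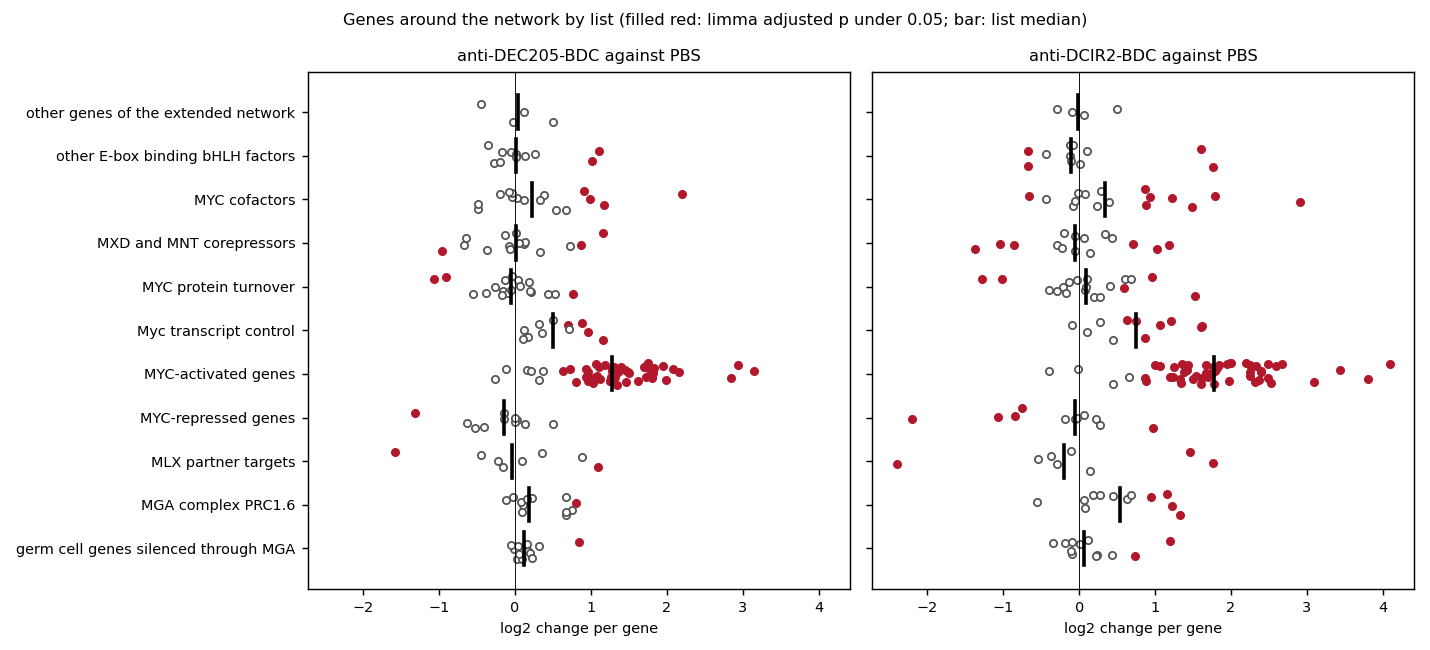
Log2 change of each measured gene in the 11 lists against PBS, for anti-DEC205-BDC (left) and anti-DCIR2-BDC (right); filled red points passed limma at an adjusted p under 0.05 and bars are list medians. The MYC-activated genes have medians of 1.27 and 1.78, and the medians of the other lists lie between -0.20 and 0.75.

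Of 11 measured genes that MYC is known to repress, 0 rose and 1 fell after anti-DEC205-BDC (median -0.15), and 1 rose and 4 fell after anti-DCIR2-BDC (median -0.05). Of all genes 3.53% fell after anti-DEC205-BDC and 7.82% after anti-DCIR2-BDC, so the single fall in the former is near the background. Cebpa, Gadd45g, Pdgfrb and Thbs1 of this list lay below the lowest array median of 5.43 already in both PBS arrays, where a fall is harder to see. Cdkn1b, the cell cycle inhibitor p27, stood at 8.83 and 8.72 in PBS, 7.57 and 7.35 after anti-DEC205-BDC, and 6.82 and 6.32 after anti-DCIR2-BDC. Its log2 change was -1.31 (limma adjusted p = 0.00494, but 0.0517 with every probe set, where the alternatives began at 0.00174) and -2.20 (limma adjusted p = 0.000111). The iron store gene Fth1 also fell after anti-DCIR2-BDC (-0.75, limma adjusted p = 0.00135), while Ndrg1 rose (0.98, limma adjusted p = 0.0039). The falls of Ndrg2 (-1.06, limma adjusted p = 0.035) and Gadd45a (-0.84, 0.0147) did not pass in 5 and 4 alternatives. Those for Ndrg2 were without PBS array 2 (-0.66, adjusted p = 0.221), DCIR2 array 1 (0.162) or DCIR2 array 2 (0.168), with median centring (0.0597) and with every probe set (0.155). Those for Gadd45a were without PBS array 1 (0.106), DCIR2 array 1 (0.0725) or DCIR2 array 2 (0.109) and with every probe set (0.0636). The 4 falls became 2 without either DCIR2 array or with every probe set.

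Among the cofactors through which MYC acts on chromatin, 4 of 16 rose and 0 fell after anti-DEC205-BDC (median 0.22), and 7 rose and 1 fell after anti-DCIR2-BDC (median 0.34). Of all genes 5.32% rose after the first antibody and 10.1% rose and 7.82% fell after the second, with medians of -0.03 and -0.05. Ruvbl1 and Ruvbl2 encode partner ATPases of chromatin complexes. Ruvbl1 stood at 6.35 and 7.41 in PBS, 8.76 and 9.39 after anti-DEC205-BDC, and 9.78 and 9.80 after anti-DCIR2-BDC. It rose by 2.20 (limma adjusted p = 0.00277, but 0.0554 with every probe set) and 2.91 (limma adjusted p = 0.000188). Ruvbl2 rose by 1.17 and 1.79 (limma adjusted p = 0.00467 and 0.000157). The acetyltransferase Kat2a (1.49, limma adjusted p = 0.000595) and the histone methylation subunit Wdr5 (1.22, limma adjusted p = 0.00297) followed after anti-DCIR2-BDC. The count of 4 after anti-DEC205-BDC was 1 with every probe set and 2 without PBS array 1 or without DEC205 array 2. The 1 fall and the 7 rises after anti-DCIR2-BDC became 0 and 5 to 7 when 1 array was left out.

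The corepressors of MXD and MNT moved in both directions. After anti-DCIR2-BDC 3 of 15 measured rose and 3 fell (median -0.06), and after anti-DEC205-BDC 2 rose and 1 fell (median 0.01). Among all genes 10.1% were higher and 7.82% lower after anti-DCIR2-BDC, and 5.32% higher and 3.53% lower after anti-DEC205-BDC. The counts lie above these shares, but they rest on few genes in a list of 15 and are not a result about the list. Sin3a, which encodes the scaffold that MXD proteins bind, had log2 changes of -0.13 and -0.29 (limma adjusted p = 0.821 and 0.459), and Sin3b of -0.07 and -0.06. The deacetylase gene Hdac2 rose after anti-DCIR2-BDC (1.18, limma adjusted p = 0.00135), while Hdac1 was at -0.22 (limma adjusted p = 0.44). Arid4a, a subunit of SIN3 complexes, fell after anti-DCIR2-BDC (-1.37, limma adjusted p = 0.00149). Sap30, another subunit of them, rose (1.03, limma adjusted p = 0.00391). The falls numbered 1 without DCIR2 array 2 and 2 without PBS array 1, and the rises 2 without PBS array 2 or either DCIR2 array. After anti-DEC205-BDC the rises numbered 1 without PBS array 1, the falls 0 without PBS array 2 or DEC205 array 1, and both 0 with every probe set.

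Of 11 genes that act on the Myc transcript or its translation, 4 rose after anti-DEC205-BDC and 7 after anti-DCIR2-BDC, and 0 fell in either (medians 0.51 and 0.75), where 5.32% and 10.1% of all genes rose. Ptbp1, an RNA-binding protein gene, rose by 1.16 and 1.61 (limma adjusted p = 0.00161 and 8.83e-05). The cap-binding translation factor gene Eif4e stood at 8.67 and 8.19 in PBS, 9.34 and 9.45 after anti-DEC205-BDC, and 9.97 and 10.13 after anti-DCIR2-BDC, where it rose by 1.62 (limma adjusted p = 0.00028). Pvt1, the long noncoding RNA next to Myc, stood at 7.18 and 6.93 in PBS, 8.02 and 7.50 after anti-DEC205-BDC, and 8.05 and 8.18 after anti-DCIR2-BDC. Its groups against PBS did not overlap. It rose after anti-DCIR2-BDC (1.06, limma adjusted p = 0.0068), though not without DCIR2 array 2 (1.001, adjusted p = 0.068, against 0.00274 at the lowest alternative), and was at 0.71 after anti-DEC205-BDC (limma adjusted p = 0.0797). The count of 4 was 1 with every probe set, without PBS array 2 or without DEC205 array 2, and that of 7 was 4 without DCIR2 array 2.

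Of 19 genes for the turnover of MYC protein, 1 rose and 2 fell after anti-DEC205-BDC (median -0.06), and 3 rose and 2 fell after anti-DCIR2-BDC (median 0.09). Of all genes 5.32% and 10.1% rose, and 3.53% and 7.82% fell. The counts rest on few genes in a list of 19 and are not a result about the list. Usp36, a nucleolar deubiquitinase gene, rose after anti-DCIR2-BDC (1.53, limma adjusted p = 0.000284). Ppp2r5a, a phosphatase subunit gene, fell after both (-0.90 and -1.02, limma adjusted p = 0.00729 and 0.00148). Usp28, another deubiquitinase gene of the list, also fell after both (-1.06 and -1.28, limma adjusted p = 0.0405 and 0.00861). Neither fall of Usp28 passed with every probe set (limma adjusted p = 0.177 and 0.0678). Its log2 changes were -0.77 and -0.99 without PBS array 2. Fbxw7, the ubiquitin ligase subunit that marks MYC for breakdown, was at -0.26 and 0.08 (limma adjusted p = 0.684 and 0.904). The 1 rise after anti-DEC205-BDC, Usp36 (0.77, limma adjusted p = 0.0258), was lost when any 1 array was left out (up to 0.161). The falls numbered 1 without PBS array 2 or either DEC205 array after anti-DEC205-BDC, and 1 without PBS array 2 or DCIR2 array 1 after anti-DCIR2-BDC. The 3 rises after anti-DCIR2-BDC numbered 2 when any array but PBS array 1 was left out.

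In the wider family, 0 of 4 genes (Mycl, Bmyc, Mlxip and Mlxipl) passed in either comparison against PBS in limma, and 1, Bmyc, had an unadjusted p under 0.05 in each, with log2 changes of 0.50 and 0.50. Among 11 other helix-loop-helix factors that bind E-boxes, 2 rose and 2 fell after anti-DCIR2-BDC, with Tfap4, itself a MYC target (1.76, limma adjusted p = 0.000569), and Bhlhe40 (1.61, limma adjusted p = 0.000272) rising. The 2 falls, Arntl (-0.67, limma adjusted p = 0.0177) and Tfeb (-0.67, 0.0432), became 1 without PBS array 1 and 0 without PBS array 2 or either DCIR2 array. Tfeb was also lost with quantile normalization (adjusted p = 0.0804), median centring (0.0861) and every probe set (0.134). After anti-DEC205-BDC 2 rose, the same 2, and 0 fell; 1 rose without either PBS array, and 0 rose with DEC205 array 2 left out or on all probe sets. With 10.1% of all genes higher and 7.82% lower after anti-DCIR2-BDC, and 5.32% higher after anti-DEC205-BDC, such counts in 11 genes are not a result about the list. Of 8 genes known as targets of MLX and its partners, 2 rose and 1 fell after anti-DCIR2-BDC, and 1 rose and 1 fell after anti-DEC205-BDC. With every probe set neither of the latter passed. The rise after anti-DEC205-BDC, that of Fasn, had a log2 size of 1.09, and of 0.97 without PBS array 1. The counts lie above the shares among all genes (10.1% higher and 7.82% lower, and 5.32% and 3.53%). They rest on few of 8 genes and are not a result about the list. Txnip, which limits glucose uptake, stood at 10.998 and 10.70 in PBS, 9.62 and 8.92 after anti-DEC205-BDC, and 8.26 and 8.64 after anti-DCIR2-BDC, log2 changes of -1.58 (limma adjusted p = 0.00315, 0.0545 with every probe set) and -2.402 (limma adjusted p = 0.000116). Its relative Arrdc4 had a log2 change of -0.37 after anti-DCIR2-BDC (limma adjusted p = 0.0902), and the lipid synthesis genes Fasn and Acaca rose (1.76 and 1.47, limma adjusted p = 0.000422 and 0.00307).

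MGA works in a Polycomb complex, PRC1.6, that silences germ cell genes in other tissues. Of the 12 other genes of that complex 1 rose after anti-DEC205-BDC and 4 rose after anti-DCIR2-BDC, and 0 fell (medians 0.19 and 0.54), where 5.32% and 10.1% of all genes rose; the single rise after anti-DEC205-BDC is near that share. E2f6, which encodes a DNA-binding subunit, stood at 5.28 and 5.68 in PBS, 5.97 and 6.32 after anti-DEC205-BDC, and 6.61 and 7.00 after anti-DCIR2-BDC, where it rose by 1.32 (limma adjusted p = 0.00176). The rise of Tfdp1 after anti-DEC205-BDC (0.80, limma adjusted p = 0.0386) passed in 8 of 16 alternatives, and was lost when any 1 array other than PBS array 2 was left out (up to 0.211). The 4 rises after anti-DCIR2-BDC became 3 without DCIR2 array 2. Of 12 germ cell genes 1 rose after anti-DEC205-BDC and 2 rose after anti-DCIR2-BDC, and 0 fell (medians 0.13 and 0.07). Both counts are near the 5.32% and 10.1% of all genes that rose, and are not a result about these genes. The genes that rose were Zcwpw1, a histone reader (0.85 and 1.20, limma adjusted p = 0.023 and 0.0017), and, after anti-DCIR2-BDC, the cohesin subunit gene Stag3 (0.74, limma adjusted p = 0.00728). Stag3 stood at 4.97 and 4.83 in PBS and at 5.52 and 5.76 after anti-DCIR2-BDC. Apart from Zcwpw1, all of these germ cell genes lay below the lowest array median of 5.43 in both PBS arrays, where a fall is harder to see. After anti-DEC205-BDC the rise of Zcwpw1 was lost in 3 alternatives, those that left out PBS array 1 (0.72, adjusted p = 0.136) or DEC205 array 2 (0.64, 0.145) and that on all probe sets (0.11); the lowest adjusted p was 0.0115. Stag3 did not pass in 2 of 15 alternatives, without PBS array 2 or without DCIR2 array 2 (adjusted p up to 0.0741, range from 0.00394). Without PBS array 2, 1 germ cell gene fell after anti-DCIR2-BDC.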

How the data were processed

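The authors deposited 1 log2 value for each probe set and array, summarised by RMA with the Partek software according to the design text; the sources used here give no version or settings. RMA usually includes a normalization between arrays, which lessens a shift common to all genes; the medians of the deposited arrays still ran from 5.43 to 5.56. Per the labels' protocols, cDNA was amplified from 5 ng of total RNA, which can add noise to dim probe sets. The network genes and all lists were chosen with earlier results of these data known.

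Of 35556 probe sets, 21789 had 1 gene symbol, 1621 several and 12146 none; the last 2 kinds were left out. RefSeq (GRCm38.p6) matched 21698 of the former. The brightest probe set per gene gave 19938 genes. limma 3.58.1 (R 4.3.3) fitted 1 mean per group over all 6 arrays, with moderated variances that follow a trend on the mean, two-sided, adjusted by Benjamini-Hochberg over all genes at 0.05. The p-values measure the spread between these arrays, which the labels call biological duplicates. No label ties equally numbered arrays to a shared mouse or day, so the fit has no block. At most 9 values were identical between any pair of arrays.

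All 10 network genes were named. Of each list, a rule selected up to 4 passing genes with the largest change, or up to 2 with the smallest p where none passed. Not every gene so selected is given above. Smarcb1, Arid4b, Elavl1, Fubp1, Cip2a and Pcgf6 against PBS, and Hk2, Gsk3a and Tdrkh between the antibodies, were among those left out. Kat2a, Sap30, Hdac2 and Arid4a also passed after anti-DEC205-BDC but are described only after anti-DCIR2-BDC. These omissions were a choice beyond the rule. Cd3d, Cd3e, Cd3g, Cd4, Cd28, Trat1, Cd14, Eomes, E2f2, Tert, Tfam, Slc2a1, Fth1, Sin3a, Sin3b, Hdac1, Fbxw7, Arrdc4 and Mycl, and Pvt1 after anti-DEC205-BDC, were singled out outside this rule after their values were seen, and Cdk4 for its E-boxes. Cebpa, Gadd45g, Pdgfrb and Thbs1 were likewise named for their low level in PBS. The fit was tested on simulated data of 19938 genes. For anti-DEC205-BDC against PBS it found 88% of the simulated 2-fold and 100% of the 4-fold changes, with 12 false calls, and in the other comparison with PBS 92% and 100%, with 16. Between the antibodies the shares were 91% and 100%, with 10. For each fold size, 100 genes had been given a difference. In the measured comparison between the antibodies only 4 genes passed. The adjusted threshold depends on how many genes differ, so the simulated shares do not carry over to that comparison. There Bcat1, at a log2 difference of 1.16, did not pass (limma adjusted p = 0.18). The alternatives were each array left out, the block, only the 4 arrays compared, quantile normalization, median centring, every probe set, no dimmest 30% or 50% of genes, no trend, a robust trend and array weights. The counts of the lists under them were added after seeing the data.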

Additional observations from a re-analysis of the deposited data

How the results depend on the processing

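With 2 arrays a group, precision is limited by their number. Of 30 network gene changes, those of Myc and Mxd4 after anti-DEC205-BDC and of Mxd1 after anti-DCIR2-BDC crossed the threshold in some alternative, as given above, and no called change turned its direction. Mycn has no value without the dimmest 50% of genes. No member had a further probe set naming only it, so that alternative was not run. After anti-DEC205-BDC 2 network genes passed, and 1 when any 1 array was left out (1 to 1), with only the 4 arrays compared (1) or with median centring (1), and 0 with every probe set. Over all genes 1763 passed there, 997 to 1367 when 1 array was left out and 694 with every probe set. After anti-DCIR2-BDC 3568 genes passed, 2090 to 3637 when 1 array was left out. Between the antibodies 4 passed, 0 to 27 when 1 array was left out, 2 with the replicate block, 0 with every probe set or no trend, 7 without the dimmest 30% of genes and 9 without the dimmest 50%. The cause was not tested. Median centring moved the share of higher calls from 60.1% to 70.4% after anti-DEC205-BDC and from 56.3% to 67.1% after anti-DCIR2-BDC. With the replicate block 2069 and 3885 genes passed against PBS, and network counts stayed at 2, 2 and 0. With 2 numbers a group and correlations of deviations from 0.0714 to 0.145, the numbers are not shown to pair the arrays.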

Other observations

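Myc differed between arrays of one treatment as well as between treatments. PBS array 2 lay 1.13 above PBS array 1, DEC205 array 2 lay 0.61 above DEC205 array 1, and the DCIR2 arrays lay 0.06 apart. Of the 53 MYC-activated genes 29 were higher in PBS array 2 than in PBS array 1, where 49.5% of all genes were. In DEC205 array 2 45 of the 53 were higher than in DEC205 array 1, against 55.9% of all genes. In DCIR2 array 2 42 were higher than in DCIR2 array 1, against 48.2% of all genes. These counts are a description, as the list was chosen with earlier results on these arrays known. The median of the list relative to each gene's PBS mean was -0.02 and 0.02 in the PBS arrays, 1.21 and 1.37 after anti-DEC205-BDC, and 1.70 and 1.86 after anti-DCIR2-BDC.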
